A study of Homo sapiens with 18 samples.

Results

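Glucose enters a cell through a transporter and is broken down to pyruvate by glycolysis, and 10 genes of this route were followed here in Caco-2 cells deprived of riboflavin. They were the glucose transporter SLC2A1 (GLUT1), the hexokinase HK2, and 8 enzymes of the later steps, namely GPI, ALDOA, TPI1, PGK1, PGAM1, ENO1, PKM and LDHA. A probe set counted as a member when its platform symbol was exactly 1 of these names, which gave 26 of the 54613 probe sets on the array that are not controls, and 10 of the 19775 genes with a probe set of their symbol alone. Caco-2 is an established line from a human colon carcinoma, widely grown to stand for intestinal epithelial cells. Riboflavin is vitamin B2, from which cells make FMN and FAD, the cofactors of flavin enzymes.

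The depleted groups were Caco-2 cells kept in riboflavin-free DMEM for 24 h, 48 h and 72 h (ribo deficient in the labels), and each had a control group of untreated cells in DMEM of the same hour. Both media held 10% foetal calf serum with penicillin and streptomycin, and serum itself contains riboflavin, so depletion means removal from the basal medium. The labels mention dialysed serum without saying whether it was used for these arrays. All cells were of 1 line, and each of the 6 groups had 3 Affymetrix arrays, 18 in all. Nothing in the labels says that the arrays of a group came from separate cultures, so the p-values below measure only the spread between these samples, which may be technical.

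In glycolysis, hexokinase traps glucose as glucose 6-phosphate, an isomerase, a kinase and an aldolase turn it into triose phosphates, and the later enzymes draw ATP and NADH from these on the way to pyruvate. Lactate dehydrogenase then reduces pyruvate to lactate and returns NAD+ to the pathway. Proliferating carcinoma cells typically run this route at a high rate even with oxygen present, whereas the alternative fate of pyruvate, mitochondrial oxidation, depends on flavin enzymes such as the E3 subunit of pyruvate dehydrogenase and respiratory complexes I and II. Several glycolytic genes are textbook targets of the transcription factors HIF-1 and MYC.

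The array numbering in the labels ran through all 6 groups 3 times, giving sets 1, 2 and 3 with 1 array of each group. Set 2 stood apart: its highest signals per array were 27380.2 to 31409.8, against 6904.8 to 8574.5 in the other sets, and its median signals were 25.6 to 31.3, against 18.4 to 23.3. Differences below were therefore taken within sets, and results that depend on 1 set are given with and without it. The LDHA signal reached 9.30 to 23.7% of its array's highest signal in set 2 and 29.3 to 59.3% in sets 1 and 3. All 12 epithelial markers, among them EPCAM, KRT18 and VIL1, passed the filter on low signal. The medians of CDX1 and KRT20 (11.8 and 19.4) lay below the filter's signal of 19.6, and CDX1 reached 92.6 on its highest array. Leukocyte markers summed to 317.4 to 386.3 in depleted cells at 72 h and 209.7 to 279.0 in control cells at 72 h, while the pan-leukocyte marker PTPRC had a median of 5.45. Endothelial markers summed to 80.6 to 82.7 in depleted cells and 65.5 to 69.1 in control cells at 72 h, with CDH5 and VWF at medians of 5.5 and 6.65, and fibroblast markers to 404.9 to 514.2 in depleted cells and 506.6 to 634.9 in control cells, with COL1A2 at a median of 9.9. The filter was passed by 4 of 5 leukocyte, 5 of 7 fibroblast and 1 of 4 endothelial markers on the array. The brightest of each list were LYZ (median 179.5), COL1A1 (287.6) and PECAM1 (50.5). The part of these markers in the results below was not tested. In bulk RNA, fewer cells with a transcript and less transcript per cell cannot be told apart.

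Sequences just upstream of the transcription start are shown for SLC2A1 and HK2, which were higher in depleted cells at 72 h. They are also shown for PGK1 and LDHA, which are among the 5 genes lower in the averaged effect (below). Each is 250 bases from RefSeq on GRCh38.p14, read 5′ to 3′ on the gene's strand, and all 10 genes were matched in the RefSeq table, with 15 starts in all. Capitals mark ACGTG or GCGTG, the 2 forms of the core that HIF-1 binds, read on both strands, and the E-box CACGTG, which MYC with MAX binds. CACGTG is a palindrome and holds ACGTG on both strands, so each E-box counts as 2 matches to ACGTG. HK2 has 2 starts here, at chr2:74833877-74834126 (+) and chr2:74834920-74835169 (+). The windows of SLC2A1, PGK1 and LDHA are chr1:42958869-42959118 (-), chrX:78103998-78104247 (+) and chr11:18394313-18394562 (+).
SLC2A1: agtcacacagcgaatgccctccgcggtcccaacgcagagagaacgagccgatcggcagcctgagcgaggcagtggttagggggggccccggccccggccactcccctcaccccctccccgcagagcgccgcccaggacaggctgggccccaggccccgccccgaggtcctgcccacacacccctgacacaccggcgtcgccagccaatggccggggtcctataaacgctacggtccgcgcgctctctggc
HK2, upstream start: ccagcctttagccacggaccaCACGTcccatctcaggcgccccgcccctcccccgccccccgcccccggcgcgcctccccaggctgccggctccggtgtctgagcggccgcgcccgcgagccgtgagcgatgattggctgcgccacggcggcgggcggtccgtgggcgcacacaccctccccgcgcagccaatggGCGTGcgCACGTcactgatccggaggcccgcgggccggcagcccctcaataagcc
HK2, downstream start: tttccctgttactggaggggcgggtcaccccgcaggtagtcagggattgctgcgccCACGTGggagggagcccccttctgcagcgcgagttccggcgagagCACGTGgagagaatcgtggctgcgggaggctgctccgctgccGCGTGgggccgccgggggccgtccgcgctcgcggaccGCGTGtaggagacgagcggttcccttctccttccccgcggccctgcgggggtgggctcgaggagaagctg
PGK1: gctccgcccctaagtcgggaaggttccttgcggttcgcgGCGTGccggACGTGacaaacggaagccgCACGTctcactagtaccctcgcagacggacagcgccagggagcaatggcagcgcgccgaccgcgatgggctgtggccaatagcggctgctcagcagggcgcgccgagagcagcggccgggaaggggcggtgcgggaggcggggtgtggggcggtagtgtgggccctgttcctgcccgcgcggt
LDHA: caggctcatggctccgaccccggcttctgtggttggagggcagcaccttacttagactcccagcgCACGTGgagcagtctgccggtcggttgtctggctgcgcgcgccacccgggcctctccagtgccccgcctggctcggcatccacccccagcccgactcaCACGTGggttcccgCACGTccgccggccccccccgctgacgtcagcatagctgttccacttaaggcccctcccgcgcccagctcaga
The SLC2A1 window held 0 matches to either core form, the HK2 windows held 3 and 6, that of PGK1 3 and that of LDHA 5. LDHA has a second start, whose window is not printed and held 1 core match and 0 copies of CACGTG. PGAM1, ENO1 and PKM were also lower in the averaged effect, and their windows, not printed, held 0, 2 and 0 core matches. Both the downstream HK2 window and the printed LDHA window held 2 copies of CACGTG. Over all 15 member windows, 11 held at least 1 core in either form, and 43.2% of all 35116 RefSeq windows of the same length did. Those 11 belong to HK2, GPI, ALDOA, TPI1, PGK1, ENO1 and LDHA. CACGTG was found in 3 of the 15, against 6.34% of all windows. HK2, ALDOA, TPI1 and LDHA have more than 1 window each, and windows of ALDOA overlap, so the 15 are not independent. The windows were not matched on base composition, and enrichment was not tested. A match is a string of letters and not a measured site, and its absence says only that these letters are not in this window.

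Among the 10 genes, the change of lowest adjusted p at any single time was that of the glucose transporter at 72 h. SLC2A1, the basal glucose transporter of most cells, was at 2246.6, 2344.8 and 1970.4 in depleted cells at 72 h and at 562.6, 857.4 and 648.9 in control cells at 72 h (MAS5 signal of probe set 201250_s_at, sets 1 to 3). Every depleted array lay above every control array. How many of all probe sets separate in this way, or agree over all within-set pairs, was not counted. Such separations and pair counts, here and below, therefore only describe these arrays. SLC2A1 rose by 1.66 on the log2(signal + 16) scale (SE 0.18, 95% interval 1.28 to 2.04, a fold of 3.16, limma adjusted p = 8.02e-05). The adjusted p was 0.00416 without pairing by set and stayed between 1.67e-06 and 0.0249 over the 10 alternatives tried. At 24 h SLC2A1 was at 891.2, 1121.0 and 726.1 in depleted cells and 754.7, 1263.8 and 761.3 in control cells, and at 48 h at 1652.3, 1795.3 and 1018.2 in depleted cells and 1143.5, 1564.2 and 789.9 in control cells. The groups overlapped at both of these times.

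HK2, the inducible hexokinase of muscle and many tumours, also rose at 72 h. It was at 610.6, 438.3 and 677.2 in depleted cells at 72 h and at 271.9, 272.6 and 241.0 in control cells at 72 h (202934_at). The groups did not overlap, and the difference was narrowest in set 2. The rise was 1.07 (SE 0.17, a fold of 2.10, limma adjusted p = 0.00119). It missed the threshold without set 1 (adjusted p = 0.0744) and without set 3 (adjusted p = 0.0886), and held without set 2 (0.00465). Both other HK2 probe sets were dim, near the filter, and stood at -0.37 and -0.62 at 72 h (limma adjusted p = 0.421 and 0.402). With all 3 probe sets of the gene averaged, the difference was 0.03 (adjusted p = 0.95), and the HK2 rise was seen in its bright probe set alone. At 24 h HK2 lay the other way, at 220.6, 230.3 and 236.6 in depleted cells and 359.4, 263.5 and 374.4 in control cells, with every depleted array below every control array (-0.49, SE 0.17, adjusted p = 0.144, which did not pass).

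At 72 h 2 of the 10 genes were thus higher and 2, PGAM1 and LDHA, lower, where 13.3% of the 27307 probe sets tested were called, 6.4% higher and 6.9% lower. Averaged over the 3 times, 1 gene (SLC2A1) was higher and 5 (PGK1, PGAM1, ENO1, PKM and LDHA) were lower, where 15% of probe sets were called, 8.55% higher and 6.46% lower. That split of 2334 higher and 1763 lower probe sets became 1684 higher and 2226 lower with arrays centred on their 75th percentile. All 8 enzymes below HK2 had a negative averaged difference, from -0.75 for PKM to -0.25 for PGK1, as had 46.0% of all probe sets tested. These 8 genes correlated with each other (below), so their signs are not independent. The median over the 10 genes was -0.33, and over all probe sets tested it was 0.02. SLC2A1 itself averaged 0.67 (SE 0.10, a fold of 1.59, adjusted p = 0.000868), which missed the threshold without set 1 (0.56, adjusted p = 0.0676).

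**Figure D1:**
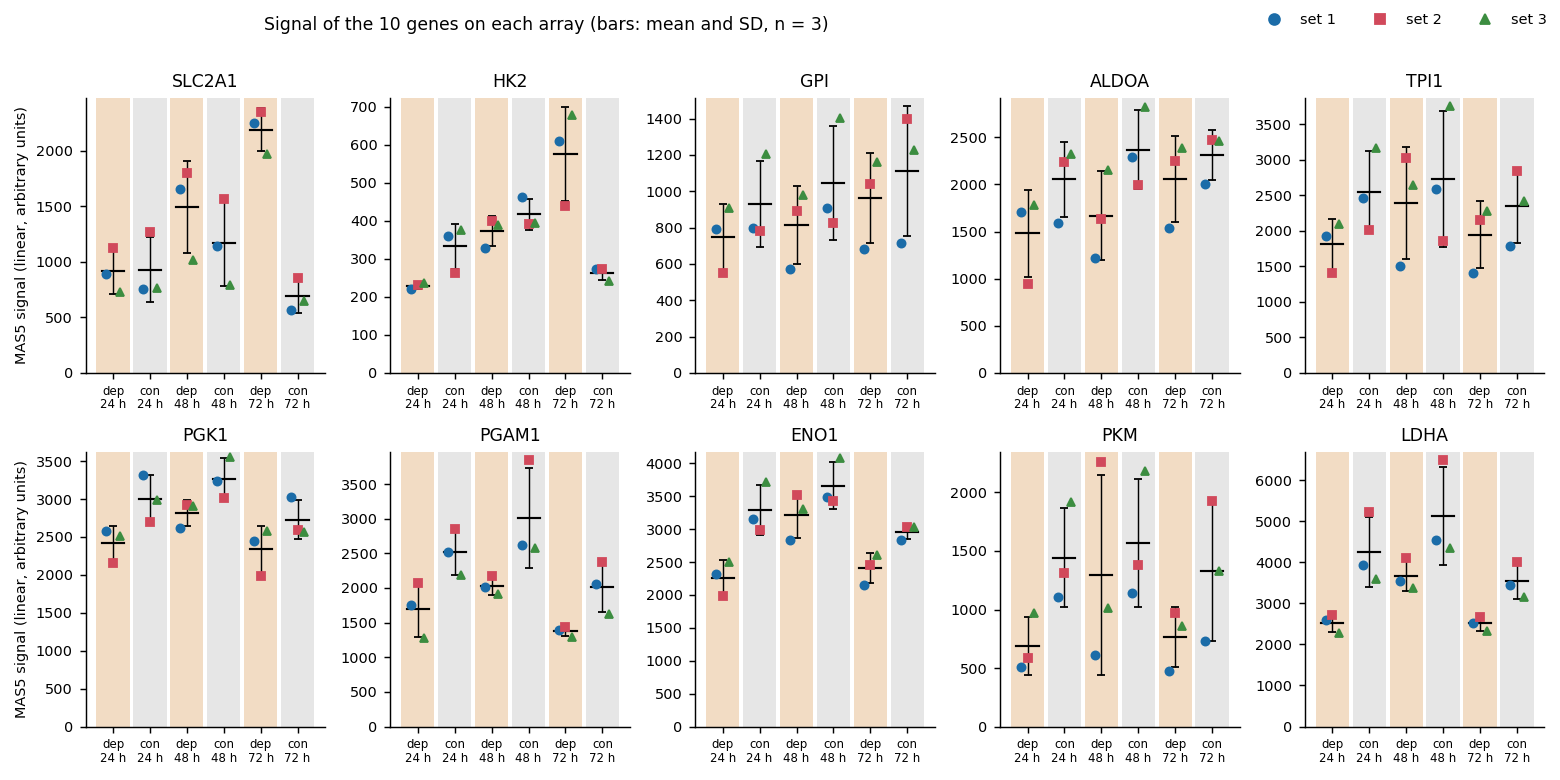
MAS5 signal (linear axis from 0, arbitrary units) of the 10 genes on each of the 18 arrays, 1 panel per gene, through the probe set of highest mean. Depleted cells (dep) stand left of control cells (con) at 24, 48 and 72 h, points are sets 1 to 3, and bars are the mean and SD (n = 3). SLC2A1 and HK2 separate upward in depleted cells at 72 h only, while the depleted LDHA and PGAM1 arrays lie below the control arrays at all 3 times.

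The glycolytic steps are taken in order from here. GPI, which interconverts glucose 6-phosphate and fructose 6-phosphate, was at 791.3, 551.7 and 905.9 in depleted cells and 800.6, 783.1 and 1204.3 in control cells at 24 h. At 72 h it was at 684.1, 1042.0 and 1160.6 in depleted cells and 713.0, 1396.8 and 1227.1 in control cells. The groups overlapped at every time. Its averaged difference was -0.28 (SE 0.13, 95% interval -0.57 to 0.00, limma adjusted p = 0.177), and 8 of 9 within-set pairs were lower in depleted cells.

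ALDOA, the aldolase that splits fructose 1,6-bisphosphate, was at 1711.0, 946.2 and 1786.1 in depleted cells and 1595.0, 2238.8 and 2327.0 in control cells at 24 h (214687_x_at). The groups overlapped at each time, and in set 1 at 24 h the depleted array was the higher one. The averaged difference of -0.40 (SE 0.13) lay just outside the threshold (limma adjusted p = 0.0525), and passed it with a pseudocount of 64 (0.0207), with arrays centred on the 75th percentile (0.0277) and with all probe sets averaged (0.034). The other ALDOA probe sets stood at -0.41 and -0.50 and were called (adjusted p = 0.0268 and 0.043), although neither was without pairing (0.209 and 0.421). All 3 ALDOA probe sets carry the suffix of sets that may bind related transcripts.

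TPI1 interconverts the triose phosphates. It was at 1931.8, 1410.1 and 2090.0 in depleted cells and 2457.5, 2013.6 and 3160.9 in control cells at 24 h. It was at 1508.0, 3018.9 and 2638.4 in depleted cells and 2591.1, 1854.9 and 3752.7 in control cells at 48 h (213011_s_at). At 48 h set 2 went the other way from sets 1 and 3, while all 3 sets were lower in depleted cells at 24 h and 72 h. The groups overlapped at all 3 times. The averaged difference was -0.32 (SE 0.15, limma adjusted p = 0.193) and became -0.44 (adjusted p = 0.0341) without set 2.

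PGK1 makes the first ATP of the pathway's second phase. In depleted cells at 24 h it was at 2578.9, 2156.6 and 2506.8, and in control cells at 24 h at 3321.8, 2695.3 and 2990.5 (200738_s_at). Depleted arrays lay below all control arrays at 24 h and 48 h and overlapped them at 72 h. The averaged fall was 0.25 on the log2 scale, with an SE of 0.08 and a limma adjusted p of 0.042. That call was lost without pairing (adjusted p = 0.213) and without any 1 set (0.0998 to 0.326). It was also lost without a filter on low signal (0.132), under quantile normalization (-0.16, 0.209) and with all probe sets averaged (0.0819), and was kept in 3 of the 10 alternatives. The dimmer probe set 227068_at was at 492.4, 275.6 and 419.0 in depleted cells and 949.8, 444.5 and 703.5 in control cells at 72 h, a fall of 0.77 (adjusted p = 0.00348, and 0.185 without pairing). Of the 5 PGK1 probe sets tested, 4 were called lower in the averaged effect.

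PGAM1 moves the phosphate of 3-phosphoglycerate and had 1 probe set. It was at 1750.1, 2073.5 and 1276.1 in depleted cells and 2525.4, 2849.5 and 2189.7 in control cells at 24 h. At 48 h it was at 2011.6, 2165.3 and 1910.0 in depleted cells and 2622.8, 3840.4 and 2572.4 in control cells. At 72 h it was at 1395.1, 1429.4 and 1296.3 in depleted cells and 2051.1, 2370.9 and 1630.7 in control cells. Depleted arrays were below all control arrays of their hour at 24, 48 and 72 h, and 9 of 9 pairs were lower. No share of all probe sets stands beside these counts. PGAM1 fell by 0.55 averaged over the times (SE 0.08, a fold of 0.681, limma adjusted p = 0.000689). It was called under each of the 10 alternatives (adjusted p = 5.62e-05 to 0.0488).

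ENO1, the enolase that makes phosphoenolpyruvate, was at 2316.7, 1979.0 and 2495.3 in depleted cells and 3160.7, 2991.2 and 3717.7 in control cells at 24 h (201231_s_at). At 72 h it was at 2157.1, 2450.3 and 2612.1 in depleted cells and 2829.1, 3031.3 and 3028.1 in control cells. The groups were apart at 24 h and 72 h and overlapped at 48 h. ENO1 fell by 0.34 in the averaged effect (SE 0.08, limma adjusted p = 0.00863), a call lost without pairing (0.076), without set 1 (0.167) and without set 3 (0.174). A second bright ENO1 probe set, 217294_s_at, fell by 0.42 (adjusted p = 0.00184, and 0.0691 without pairing). With all 4 ENO1 probe sets averaged, the dim ones included, the difference was -0.18 (0.102) and the call was lost.

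PKM, whose isoforms catalyse the last step to pyruvate, was at 509.4, 582.2 and 967.2 in depleted cells and 1109.0, 1309.5 and 1914.4 in control cells at 24 h (201251_at). No depleted array reached a control array at that time. At 48 h the values were 614.0, 2258.8 and 1012.0 in depleted cells and 1141.2, 1377.1 and 2186.6 in control cells, with set 2 reversed. At 72 h they were 474.1, 967.1 and 856.6 in depleted cells and 731.8, 1926.6 and 1331.2 in control cells, and the groups overlapped. PKM had the most negative averaged difference of the 10 genes, a fall of 0.75 (SE 0.18, a fold of 0.597, limma adjusted p = 0.0145), lost without pairing (0.128), without set 1 (0.187) and without set 3 (0.177). Without set 2 it was -0.88 (adjusted p = 0.00123). The dim second PKM probe set, 213700_s_at, stood at 0.18 (0.301), and with both probe sets averaged PKM was at -0.28 (0.179) over the times and at -0.48 (0.299) at 24 h.

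LDHA, which reduces pyruvate to lactate, was at 2595.6, 2715.1 and 2283.7 in depleted cells at 24 h, against 3936.0, 5223.5 and 3603.4 in control cells at 24 h. At 48 h it was at 3538.0, 4111.7 and 3381.2 in depleted cells and 4551.4, 6488.8 and 4341.3 in control cells. At 72 h it was at 2529.7, 2677.9 and 2324.7 in depleted cells and 3448.6, 4015.1 and 3149.2 in control cells. The depleted arrays were the lower ones in all 9 pairs, with no overlap at any time, again with no share of all probe sets beside it. LDHA fell by 0.56 in the averaged effect (SE 0.07, a fold of 0.679, limma adjusted p = 0.000277), and stayed called under each of the 10 alternatives (1.7e-05 to 0.0419).

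At 24 h LDHA, PGAM1 and ENO1 were called lower and no gene higher, where 2.37% of probe sets were called, 0.813% lower and 1.55% higher. All 10 genes had a negative difference at this time, and 49.6% of all probe sets did. LDHA fell by 0.73 (SE 0.13, limma adjusted p = 0.00998), PGAM1 by 0.58 (0.0475) and ENO1 by 0.54 (0.0484). These 3 calls were lost without pairing (adjusted p = 0.234, 0.467 and 0.361) and whichever set was left out, over a range of 0.0711 to 0.439 for the 3 genes together. Those of PGAM1 and ENO1 were also lost with a pseudocount of 1 (0.0542 and 0.0529) and without a filter (0.15 and 0.16), that of PGAM1 with arrays centred on the 75th percentile (0.0745), and that of ENO1 under quantile normalization (0.108) and with all probe sets averaged (0.0638). PKM stood at -1.07 (SE 0.31, adjusted p = 0.0899), and was called without set 2 (-1.04, 0.027) and with a pseudocount of 64 (-1.02, 0.0356). SLC2A1 did not move measurably, at -0.00 with a 95% interval of -0.38 to 0.38.

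At 48 h none of the 10 genes passed limma's test, where 0.692% of probe sets were called in either direction. An unadjusted p under 0.05 was reached by 3 of them, and by 4328 of the 27307 probe sets tested. The lowest adjusted p among the 10 genes was 0.0986 (PGAM1, -0.54), followed by LDHA (-0.46, 0.114). Without set 2, PKM was called lower (-0.99, adjusted p = 0.0497, against -0.42 and 0.544 with all sets). SLC2A1 stood at 0.36 (SE 0.18, adjusted p = 0.343) and was higher in depleted cells in 3 of 3 sets. Set 2 differed from the other sets in these genes at this time: 6 of the 10 were higher in its depleted array, against 1 of 10 in set 1 and in set 3. Over all probe sets, 45.4 to 45.7% were lower in the depleted array of each set. The median over the 8 enzymes was -0.00 in set 2, -0.52 in set 1 and -0.41 in set 3. Centring the arrays on their 75th percentile moved the median of all probe sets at 48 h by over 0.1, to -0.05 from 0.07, and left the count of genes called at 0.

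At 72 h LDHA fell by 0.49 (SE 0.13, limma adjusted p = 0.0206) and PGAM1 by 0.53 (SE 0.14, 0.0232). Both lost the call without pairing (0.239 and 0.234) and whichever set was left out (0.0635 to 0.222 for LDHA, 0.11 to 0.245 for PGAM1). Both were also lost without a filter (0.0787 and 0.0777), and PGAM1 with arrays centred on the 75th percentile (0.055). A count of 1 to 3 called genes at 72 h was left when a set was taken out, and SLC2A1 was among them each time. PKM stood at -0.74 (adjusted p = 0.143), and was called at -0.62 (0.0254) without set 2.

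**Figure D2:**
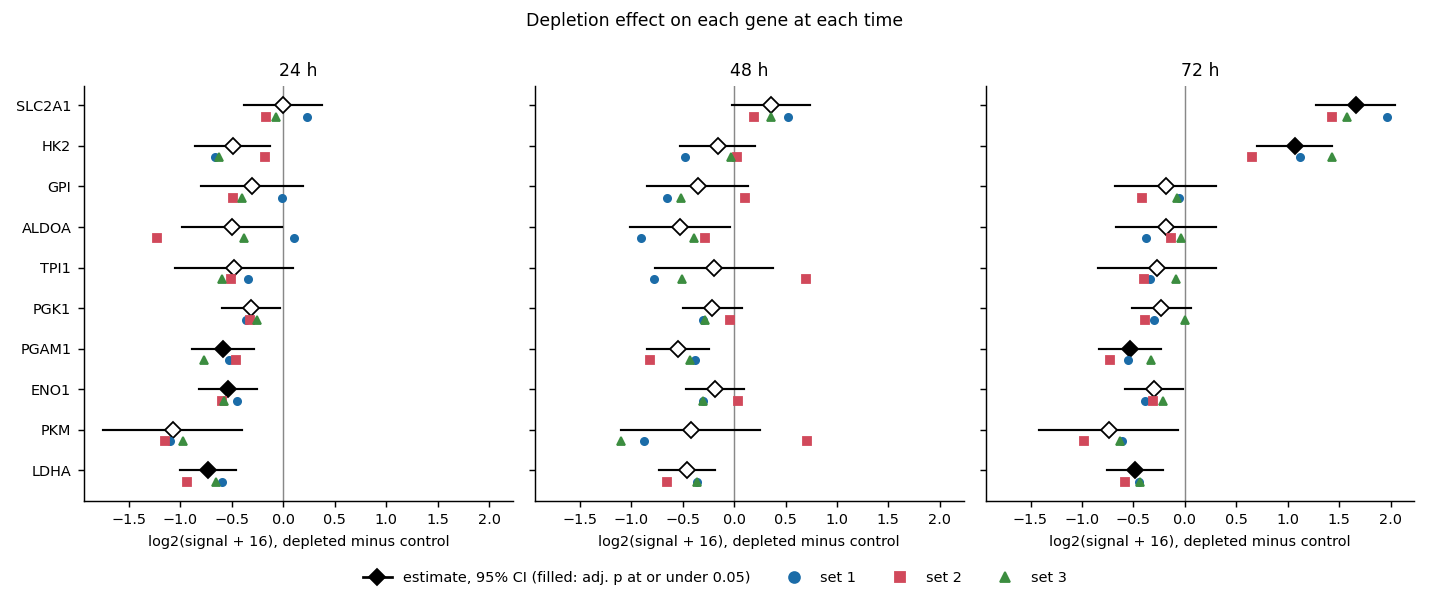
Difference in log2(signal + 16), depleted minus control cells, for the 10 genes at 24, 48 and 72 h, with 95% intervals from the paired fit (filled where the adjusted p was at or under 0.05) and the 3 within-set differences as small points. SLC2A1 goes to 1.66 and HK2 to 1.07 at 72 h, while the estimates of the 8 other genes lie below 0 at each time.

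The effect of depletion on SLC2A1 and HK2 differed between times, and this difference was itself tested. For SLC2A1 the effect at 72 h exceeded that at 24 h by 1.66 (SE 0.25, limma adjusted p = 0.00344) and that at 48 h by 1.30 (0.019). For HK2 the corresponding values were 1.56 (SE 0.24, 0.00352) and 1.23 (0.0199). These were the only 2 of the 10 genes called in either contrast, both with the effect higher at 72 h. Against 24 h, 4.58% of probe sets were called, 1.87% with a higher effect at 72 h and 2.71% with a lower one, and against 48 h 2.25%, of which 1.03% were higher. Without pairing only HK2 against 24 h stayed called (0.0218, and 0.0887 for SLC2A1), while against 48 h neither was (0.291 for SLC2A1 and 0.114 for HK2). The calls against 48 h were also lost without a filter on low signal (0.063 for SLC2A1 and 0.0661 for HK2). With all probe sets of a gene averaged, HK2 was at 0.43 against 24 h (adjusted p = 0.425) and turned to -0.30 against 48 h (0.63), while SLC2A1 kept its call against 24 h (1.49, 0.0125) and lost it against 48 h (0.78, 0.184). Taking out set 1 or set 3 ended all 4 calls, at adjusted p = 0.144 to 0.362, and without set 2 all but SLC2A1 against 48 h (0.0977) were kept. Calls over all probe sets fell as well. Against 24 h they went from 1251 to 2 without set 1, 627 without set 2 and 19 without set 3. Against 48 h they went from 615 to 0, 110 and 4. Without pairing 176 were left against 24 h and 46 against 48 h.

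For the 8 enzymes the effect at 72 h differed from that at 24 h by 0.05 to 0.33, with a lowest adjusted p of 0.498. At 48 h against 24 h, 0 of the 10 genes were called by limma, and 0 of them had an unadjusted p under 0.05. Over all probe sets 0% were called, while 2214 had an unadjusted p under 0.05.

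Within depleted cells SLC2A1 rose between 24 h and 72 h by 1.26 (SE 0.18, limma adjusted p = 0.0011) and HK2 by 1.25 (SE 0.17, 0.000936), and no other gene of the 10 was called, where 10.3% of probe sets were called, 4.37% higher and 5.93% lower. SLC2A1 averaged 913 ± 198, 1489 ± 414 and 2187 ± 194 in depleted cells at 24, 48 and 72 h (SD, n = 3 each), and 927 ± 292, 1166 ± 388 and 690 ± 152 in control cells. HK2 averaged 229 ± 8.06, 372 ± 39.2 and 575 ± 123 in depleted cells and 332 ± 60.2, 416 ± 39.5 and 262 ± 18.0 in control cells. In control cells neither gene was called between 24 h and 72 h (SLC2A1 -0.40, adjusted p = 0.325, and HK2 -0.31, adjusted p = 0.428), where 1.22% of probe sets were called. In that contrast 2 of the 10 genes had an unadjusted p under 0.05, as had 3948 of the 27307 probe sets tested. The rises in depleted cells were lost without set 1 (0.0867 for SLC2A1, 0.0968 for HK2), and that of HK2 also without set 3 (0.0581). Over all probe sets, 2812 were called in this contrast with all sets, 4 without set 1 and 315 without set 3. With all probe sets of a gene averaged, the rise of HK2 was 0.17 (0.653), and that of SLC2A1 0.99 (0.00909).

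Of the 25 member probe sets tested, 1 was called higher and 11 lower in the averaged effect, 0 and 4 at 24 h, and 3 and 5 at 72 h. Over all probe sets tested the shares were 8.55% higher and 6.46% lower averaged, 1.55% and 0.813% at 24 h, and 6.4% and 6.9% at 72 h. The remaining member, PGK1 probe set 1558365_at, did not pass the filter on low signal. The second SLC2A1 probe set, 201249_at, was at 96.0, 59.3 and 128.1 in depleted cells and 32.8, 18.7 and 56.6 in control cells at 72 h. These groups did not overlap either, and the rise was 1.10 (SE 0.34, limma adjusted p = 0.0478, and 0.164 without pairing). Over the 18 arrays, with set means taken away, probe sets of a gene correlated at 0.905 to 0.963 for ALDOA and 0.639 for SLC2A1. They spread from -0.285 to 0.036 for HK2, from 0.063 to 0.979 for TPI1, from 0.125 to 0.936 for PGK1 and from -0.448 to 0.926 for ENO1, and stood at -0.169 for PKM.

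**Figure D3:**
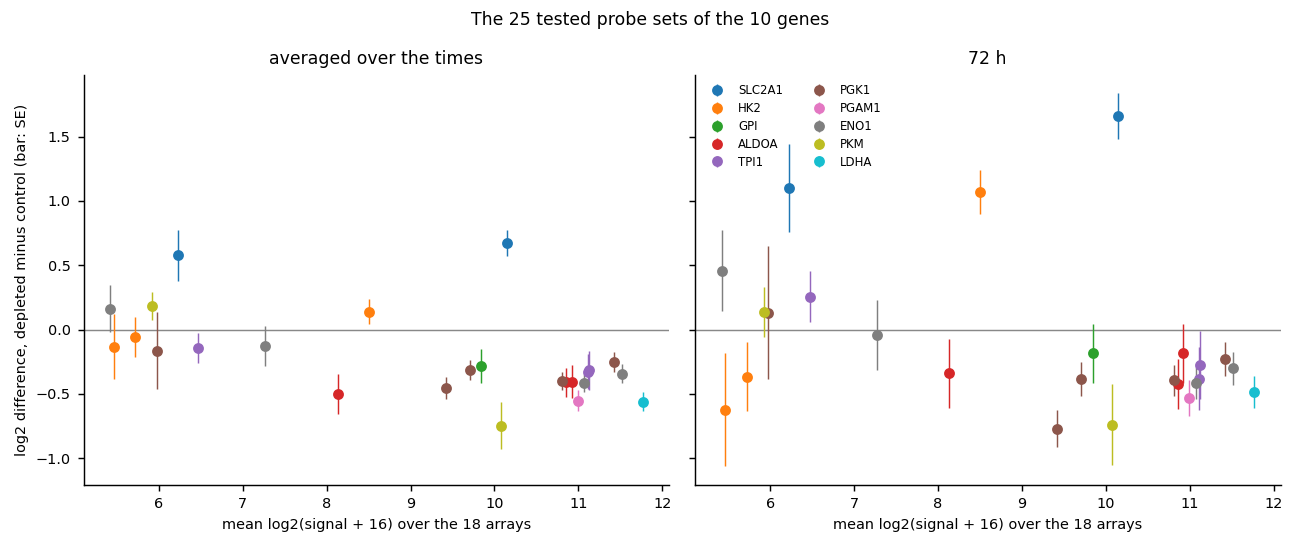
Difference in log2(signal + 16), depleted minus control cells, averaged over the times and at 72 h, against the mean log2(signal + 16) over the 18 arrays, for each of the 25 member probe sets tested, coloured by gene, with bars for the SE. The bright probe sets of the enzymes from GPI to LDHA lie below 0 in both panels, and both SLC2A1 probe sets lie above 0.

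Across the 18 arrays the 8 enzymes correlated with each other at 0.164 to 0.942 (28 pairs, median 0.671), with PGAM1 and LDHA closest. SLC2A1 and HK2 correlated with each other at 0.792, and with the 8 enzymes at -0.413 to 0.230 (16 pairs, median -0.10). These values describe log2 signals after set means were removed, and the arrays share medium, time and scaling. With the mean of the other members SLC2A1 correlated at -0.166 and HK2 at 0.340, against 0.522 to 0.876 for the 8 enzymes. The mean of the 10 thus mostly describes the enzymes. Among 12309 genes, those most like the mean of the 10 were C1QBP (0.906), TUBB (0.906), ACTL8 (0.902), CCT3 (0.883) and EIF3K (0.881). The most opposite were CCNY (-0.925), ZNF83 (-0.915), CHD6 (-0.898), ACSL5 (-0.895) and CTBS (-0.894). C1QBP, a mitochondrial matrix protein, stood at -0.52 in the averaged effect, and ACSL5, a long-chain acyl-CoA synthetase, at 0.50.

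Of 15 other glycolytic isoenzymes and regulators tested (21 in the list), 1 was higher and 1 lower in the averaged effect, with a median of -0.11, where 15% of all probe sets were called, 8.55% higher and 6.46% lower. These shares also stand behind the averaged counts of the lists that follow. HKDC1, a hexokinase-like enzyme, rose by 0.30 (SE 0.09, limma adjusted p = 0.0388) and PFKFB1, which sets fructose 2,6-bisphosphate, fell by 0.50 (SE 0.15, 0.0371), both lost without pairing (0.29 and 0.256). GAPDH, the enzyme between TPI1 and PGK1, was at 5198.6, 8951.2 and 5134.6 in depleted cells and 5009.2, 10774.1 and 4902.7 in control cells at 72 h. The groups overlapped, and its averaged difference was -0.18 (SE 0.08, adjusted p = 0.14). HK1, the constitutive hexokinase, stood at -0.60 (SE 0.24, 0.104).

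Of 6 other sugar transporters tested (11 in the list), 0 were called in the averaged effect by limma and 1 had an unadjusted p under 0.05. Of all 27307 probe sets tested, 7885 had such a p in the averaged effect, which also stands behind the lists that follow. At 72 h 1 of these 6 was called lower and 0 higher, where 6.9% of all probe sets were lower and 6.4% higher. It was SLC2A13, a proton-coupled inositol transporter, which fell by 1.04 (SE 0.15, limma adjusted p = 0.000558). SLC2A3, another glucose transporter, stood at -0.14 in the averaged effect (adjusted p = 0.323). Of 7 genes of lactate and pyruvate fate (12 in the list), 0 were called in the averaged effect and 2 had an unadjusted p under 0.05. At 72 h 2 of these 7 were called lower and 0 higher, against the same 6.9% and 6.4%. PC, the pyruvate carboxylase, fell by 1.75 at that time (SE 0.30, limma adjusted p = 0.00185). MPC2, a subunit of the mitochondrial pyruvate carrier, fell by 0.46 (SE 0.14, 0.0446, and 0.274 without pairing). PC was at 4.6, 1.8 and 16.6 in depleted cells and 37.6, 85.6 and 66.8 in control cells at 72 h, so its depleted arrays lay below the filter's signal of 19.6. PDK1, which inhibits pyruvate dehydrogenase, stood at 0.19 in the averaged effect (adjusted p = 0.395).

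Of 4 gluconeogenic genes tested (7 in the list) 2 were lower in the averaged effect, where 6.46% of all probe sets were, G6PC3, a glucose-6-phosphatase, by 0.29 (limma adjusted p = 0.0142) and SLC37A4, the glucose 6-phosphate transporter, by 0.43 (0.0229). Both were lost without pairing (0.256 and 0.0754). Of 12 genes of glycogen, galactose and fructose metabolism (17 in the list) 2 were lower against that same share, GALM, the galactose mutarotase (-0.26, 0.0303), and PGM1, a phosphoglucomutase (-0.36, 0.0405), neither of them called without pairing (0.672 and 0.11). Of 6 genes of the pentose phosphate pathway (7 in the list) 0 were called by limma in the averaged effect and 0 had an unadjusted p under 0.05. TALDO1, the transaldolase, stood closest, at -0.14 (adjusted p = 0.326).

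The list for the low-oxygen response outside glycolysis holds genes of oxygen sensing itself, such as HIF1A, ARNT and VHL, as well as responding genes. Of its 20 genes tested (23 in the list), 6 were higher and 1 lower in the averaged effect, and 4 were called without pairing. Over all probe sets 8.55% were higher and 6.46% lower. The lower one was P4HA2, a collagen prolyl hydroxylase (-0.55, adjusted p = 0.00244, and 0.109 without pairing), named here after its value was seen. The median of the 20 genes in the averaged effect, 0.03, was close to that of all probe sets. By time it was 0.23 at 24 h, 0.15 at 48 h and 0.10 at 72 h, against 0.00, 0.07 and -0.00 over all probe sets. VEGFA, the endothelial growth factor, was at 1681.3, 2332.7 and 1566.0 in depleted cells and 750.2, 1104.0 and 736.1 in control cells at 72 h. The groups did not overlap, and VEGFA rose by 0.71 in the averaged effect (SE 0.10, limma adjusted p = 0.000434). MXI1, an antagonist of MYC, rose by 0.84 (SE 0.09, 5.56e-05), DDIT4, an inhibitor of mTORC1, by 1.38 (SE 0.16, 0.000161), and KDM3A, a histone demethylase, by 0.59 (SE 0.09, 0.000975).

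Of 7 regulators of glycolytic genes tested (12 in the list) 3 were higher and 0 lower in the averaged effect, against the same 8.55% and 6.46% of all probe sets. MYC, at 2160.9, 968.7 and 3009.9 in depleted cells and 632.1, 333.5 and 685.4 in control cells at 72 h, rose by 1.78 at that time (SE 0.17, limma adjusted p = 3.5e-05, and 0.0251 without pairing). No control array reached a depleted one. MYC was the 1 gene of the 7 called at 72 h, where 6.4% of all probe sets were higher and 6.9% lower. In the averaged effect MYC rose by 0.77 (0.000221, and 0.0911 without pairing) and MAX, its partner, by 0.54 (0.000981, and 0.0825). TXNIP, which lowers glucose uptake, was at 197.1, 257.0 and 178.9 in depleted cells and 111.5, 146.5 and 116.7 in control cells at 24 h, and rose by 0.62 in the averaged effect (SE 0.11, adjusted p = 0.00281).

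**Figure D4:**
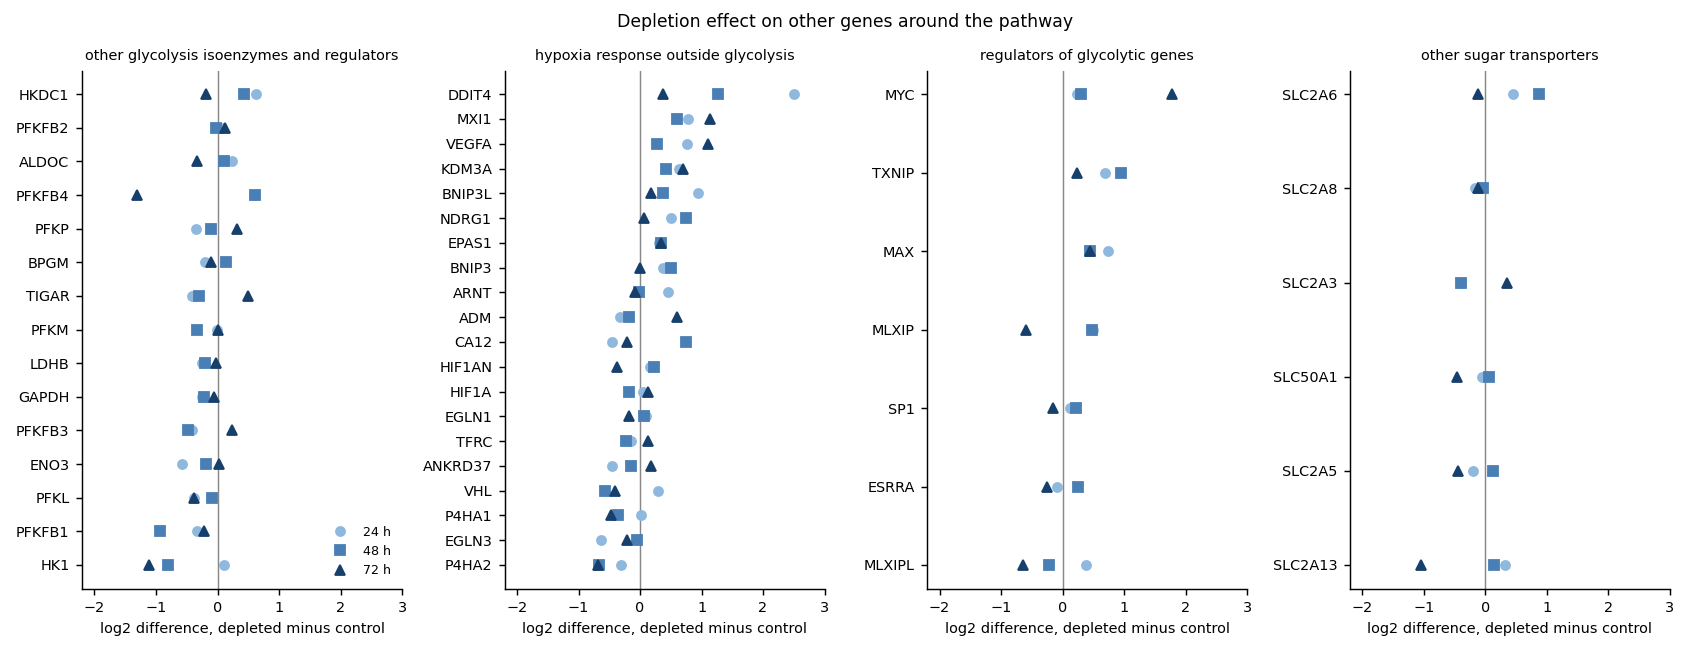
Difference in log2(signal + 16), depleted minus control cells, at 24, 48 and 72 h (circles, squares, triangles) for the genes tested in 4 of the other lists, 1 line per gene, ordered by the averaged difference. MYC stands apart at 72 h (1.78), and DDIT4, MXI1, VEGFA and KDM3A lie above 0 at all 3 times.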

How the data were processed

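Total RNA of Caco-2 cells was hybridised to 18 one-colour Affymetrix arrays. The authors deposited intensity values (signals) on a linear scale, made with MAS5 (no version stated) per the submitters' processing notes. The mean of each array with 2 percent trimmed at each end was 99.5 to 99.7, so the authors' scaling was kept. The number of arrays limits the precision.

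Values were taken as log2(signal + 16), and 62 control probe sets of the 54675 were left out. Probe sets whose mean reached the median of 5.15 were tested, 27307 in all. limma 3.58.1 in R 4.3.3 fitted all 18 arrays, with 6 group means and the set as block, Benjamini-Hochberg adjustment over all probe sets and a threshold of 0.05. A gene was read through its member probe set of highest mean. Symbols came from the platform annotation of 2016. Folds are on the log2(signal + 16) scale, which understates changes of dim probe sets.

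The numbering in the labels pairs the arrays by set: deviations from the group means correlated at 0.302 to 0.602 within sets (45 pairs) and at -0.754 to 0.163 between sets, and 18 of 18 correlated best with an array of their own set. Deviations within a group sum to 0, which pushes pairs of the same group in different sets to negative values. The lower end of the between-set range is thus partly built in. The alternatives were 2 other pseudocounts (1 and 64), no filter, 2 other scalings (75th percentile, quantile), no block, each set left out, and the mean of all member probe sets of a gene. The fit with the block was tested on simulated data with independent noise per probe set and known changes in depleted cells at 72 h only. The simulation held no correlation among probe sets and no set that differs at 1 time. It did not cover the fits without the block or with a set left out. Named from each further list were at most 4 genes of smallest p in the averaged effect, and by the same rule the 5 most and 5 least similar genes. The members and lists were chosen with earlier results of these data known. Plots used matplotlib 3.10.9 (Python 3.11.15).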

Additional observations from a re-analysis of the deposited data

Results flagged for a closer look

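The effect of riboflavin depletion on SLC2A1 and HK2 differed between times by a test of the difference itself. The effect on SLC2A1 was larger at 72 h than at 24 h by 1.66 (log2, SE 0.25, limma adjusted p = 0.00344) and larger at 72 h than at 48 h by 1.30 (adjusted p = 0.019). The effect on HK2 was larger at 72 h than at 24 h by 1.56 (SE 0.24, adjusted p = 0.00352) and larger at 72 h than at 48 h by 1.23 (adjusted p = 0.0199). All 3 sets were higher in depleted cells at 72 h for both genes, and for HK2 all 3 sets were lower in depleted cells at 24 h. With all probe sets of a gene averaged, the HK2 values were 0.43 (adjusted p = 0.425) and -0.30 (0.63), so its results rest on 1 bright probe set, and the SLC2A1 values were 1.49 (0.0125) and 0.78 (0.184).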

How the results depend on the processing

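In most contrasts the counts of the 10 genes called depend on pairing and on which sets are present. Without set 2 the averaged count stayed at 6, with TPI1 called and PGK1 not. Without the replicate block that pairs arrays by set, 3 genes were called in the averaged effect in place of 6. At 24 h 0 were called in place of 3, and 5 had an unadjusted p under 0.05, as had 2285 of 27307 probe sets. The count was 2 in place of 4 at 72 h. For 72 h minus 24 h it was 1 in place of 2, and for 72 h minus 48 h 0 in place of 2. With 1 set left out the counts were 2 to 6 in the averaged effect, 0 to 1 at 24 h, 0 to 1 at 48 h, 1 to 3 at 72 h, 0 to 2 for 72 h minus 24 h, 0 to 1 for 72 h minus 48 h and 0 to 2 for depleted cells at 72 h against 24 h. Fewer arrays also lowered the calls over all probe sets, from 4097 in the averaged effect to 628, 3383 and 548 without set 1, 2 and 3. Without the block 1162 probe sets were called in the averaged effect, 59 at 24 h (646 with it), 22 at 48 h (189) and 1136 at 72 h (3631), and with 1 set left out 0 to 228 at 24 h, 0 to 36 at 48 h and 349 to 2883 at 72 h. For 72 h minus 24 h it was 176 without the block (1251 with it) and 2 to 627 with 1 set left out. For 72 h minus 48 h it was 46 (615) and 0 to 110. Without a filter the counts were 1 at 24 h, 2 at 72 h and 0 for 72 h minus 48 h, with more probe sets to adjust over. A pseudocount of 1 gave 1 gene at 24 h, and one of 64 gave 1 at 48 h (PGAM1, lower). With the mean of all probe sets of a gene the counts were 1 for 72 h minus 24 h, 0 for 72 h minus 48 h and 1 for depleted cells at 72 h against 24 h. The contrast of 48 h minus 24 h and that of control cells stayed at 0 under each alternative. Over the 48 single values, 46 kept direction and side of the threshold with a pseudocount of 1, 45 with 64, 45 under each other scaling, 41 without a filter, 37 without the block and 36 with the mean of all probe sets. The single values that changed sign follow. With that mean HK2 was -0.017 averaged, 0.32 at 48 h and -0.30 for 72 h minus 48 h. Quantile normalization put SLC2A1 at 24 h at 0.023. With a set left out SLC2A1 at 24 h ranged from -0.12 to 0.084, HK2 at 48 h from -0.25 to 0.0021 and TPI1 at 48 h from -0.64 to 0.10. Centring on the 75th percentile turned the probe sets called at 48 h to 86 higher and 108 lower (144 and 45 otherwise), and those for 72 h minus 48 h to 368 higher and 131 lower (280 and 335 otherwise, 315 and 236 under quantile normalization). For causes other than those named, the cause was not tested.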
